A study of Mus musculus with 24 samples.

Results

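The genes described here are Dnmt1, Dnmt3a, Dnmt3b and Dnmt3l, Tet1, Tet2 and Tet3, and Uhrf1, the 8 mouse genes for the core enzymes and cofactors that write, copy and oxidise DNA methylation. Open chromatin at these genes was followed through cardiac differentiation of A2lox.cre, an established mouse embryonic stem cell line built so that inducible transgenes can be inserted at a fixed locus. A peak was taken as belonging to a gene if its summit lay inside the gene body, or, outside every protein-coding gene, if that gene was the nearest one within 50 kb. The rule gave 377 summits, which fell into 60 sites out of 128679 merged accessible regions in the whole series. Accessibility was measured by ATAC-seq, in which the Tn5 transposase inserts sequencing adapters into open DNA. There were 24 samples, 2 for each of 12 stages: undifferentiated cells labelled 2i (a medium whose inhibitors maintain the naive state), days 0 to 8 (D0 to D8) labelled as intermediates, and D10 and D15 labelled as cardiomyocytes. No further genotype or treatment is labelled. The samples of a stage share 1 deposited peak list, so the 12 lists carry no replicate spread and no difference between stages was tested. RNA and DNA methylation are not part of these measurements.

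Mammalian DNA methylation sits mostly on cytosines followed by guanine (CpG). DNMT3A and DNMT3B place new methyl groups, DNMT3L is a catalytically inactive partner that stimulates them, and DNMT1 copies the pattern to the daughter strand after replication, guided there by UHRF1, which binds hemimethylated CpG. TET1, TET2 and TET3 oxidise the methyl group and so open the way to its removal. Naive stem cells held in 2i have little DNA methylation, and methylation is laid down again as cells leave that state. A gene can have several promoters: Dnmt3a is known for an internal promoter that gives the shorter isoform Dnmt3a2, the main form in stem cells.

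The promoter windows below show the starts of the de novo genes at which the peak lists differed, with the first Dnmt3a promoter for comparison and the starts of the maintenance pair Dnmt1 and Uhrf1. Each is the reference sequence from the RefSeq promoter table (GRCm38.p6, the assembly that mm10 names), written 5′ to 3′ on the coding strand. The windows are the 250 bases before an annotated start, printed whole for Dnmt3a and Dnmt3l, from -250 to -101 for Uhrf1 and from -250 to -207 for Dnmt1. Capitals mark matches on either strand to the searched motifs. These were the GC box GGGCGG, the box named after the letters CCAAT, the E-box of the letters CACGTG, the E2F motifs TTTCGCGC and TTTGGCGC, the NRF1 core CGCATGCG and the CRE TGACGTCA.
Dnmt3a first promoter, chr12:3806730-3806979, plus strand: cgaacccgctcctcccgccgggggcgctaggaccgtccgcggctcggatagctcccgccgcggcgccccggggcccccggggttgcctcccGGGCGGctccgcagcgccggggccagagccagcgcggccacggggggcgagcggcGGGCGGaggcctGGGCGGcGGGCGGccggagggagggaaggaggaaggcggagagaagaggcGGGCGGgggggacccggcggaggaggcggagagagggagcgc
Dnmt3a internal promoter, chr12:3891494-3891743, plus strand: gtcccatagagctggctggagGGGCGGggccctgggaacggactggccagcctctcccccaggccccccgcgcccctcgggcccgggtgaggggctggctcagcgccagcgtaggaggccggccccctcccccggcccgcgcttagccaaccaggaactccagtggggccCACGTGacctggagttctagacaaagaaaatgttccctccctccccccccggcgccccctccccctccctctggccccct
Dnmt3l second start, chr10:78049592-78049841, plus strand: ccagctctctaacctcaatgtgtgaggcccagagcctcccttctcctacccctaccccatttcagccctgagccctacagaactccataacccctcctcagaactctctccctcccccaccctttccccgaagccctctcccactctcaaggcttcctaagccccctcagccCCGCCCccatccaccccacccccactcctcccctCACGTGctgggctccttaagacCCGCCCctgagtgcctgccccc
Uhrf1 second start, chr17:56304063-56304212, plus strand: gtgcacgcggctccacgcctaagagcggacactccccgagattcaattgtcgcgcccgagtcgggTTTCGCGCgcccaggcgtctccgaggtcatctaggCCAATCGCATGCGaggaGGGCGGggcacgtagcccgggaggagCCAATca
Dnmt1, the third start, chr9:20952830-20952873, minus strand: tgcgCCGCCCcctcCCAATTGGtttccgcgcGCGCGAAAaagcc

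The first Dnmt3a window held 38 CpG, more than 97.7% of the 21262 promoter windows of protein-coding genes, and 5 GC boxes. The internal window held 15 CpG, more than 63.3% of windows, 1 GC box, and an E-box 80 bp before the start. The second Dnmt3l window held 4 CpG, more than 29.0% of windows, 2 GC boxes and an E-box. Over the 15 windows of the 8 genes, the E2F motif TTTCGCGC was present in 2, 219 bp before the third Dnmt1 start and 185 bp before the second Uhrf1 start, against 0.362% of all windows. The NRF1 core was in 1 of the 15, at Uhrf1 (2.06% of all windows), the E-box in 2 (6.63%), the CCAAT box in 5 (35.4%) and the GC box in 11 (42.6%). TTTGGCGC and TGACGTCA were in none of the 15 (0.508% and 1.92% of all windows). A match is a run of letters and not a measured binding site. At Dnmt1 the CCAAT boxes of both strands overlap each other.

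The lists held 31324 peaks at D1 to 66993 at D7, and the read depth behind them is unknown. For peaks with a fold enrichment of 4.9 to 5.1, the median −log10 p was lowest at 2i (7.69) and D4 (7.71) and highest at D3 (11.6), D15 (11.5) and D10 (11.1), so an equal enrichment carried least statistical weight at 2i and D4. The median enrichment of all peaks was highest at D3, 6.39. A site missing from a list was not called, and openness in fewer cells cannot be told apart from less openness per cell. All 4 naive stem cell markers with an annotated start (Esrrb, Zfp42, Tfcp2l1 and Klf4) had a summit within 1 kb of it at 2i. The 4 also had one in every list from D2 to D8. Tfcp2l1 and Klf4 had one in every list of the course. Esrrb had none at D0, D1 and D15, and Zfp42 had none at D10 and D15. Of 5 cardiomyocyte markers, Tnnt2 and Actn2 had one at D10 and D15. Actn2 had one in every list from 2i on, and Tnnt2 from D5 on. Nkx2-5 and Myl7 had one at some earlier days, among them D5 and D8, but not at D10 or D15, and Myh6 had none in any list. Both fibroblast markers with an annotated start, Col1a2 and Postn, had one at D10 and D15, Col1a2 from D1 on and Postn from D7 on. The endothelial marker Kdr, the neural marker Sox1 and the primitive streak marker Eomes had one in every list. The endoderm marker Foxa2 had one in every list but D10. At D15 the neural marker Pax6 and the primitive streak markers T and Mesp1 had none.

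Each of these genes but Dnmt3l had a start called in most of the lists. The sites away from the starts differed from gene to gene. Sites called at the first 2 stages and not at the last 2 lay mostly at Tet2. Sites called at the last 2 and not at the first 2 lay inside Dnmt3a and Tet1, with 1 more lying 23.3 kb outside Dnmt3b. Most of both kinds were also called at stages in between. A summit lay within 1 kb of a start in all 12 lists for Dnmt1, Uhrf1, Dnmt3a, Dnmt3b, Tet2 and Tet3, or 6 of the 8 genes, against 49.6% of protein-coding genes with an annotated start. Tet1 had one in 10 lists and Dnmt3l in 3, so each of the 8 genes had at least 1 start called in some list, whereas 27.9% of genes had none. Of the 15 single starts that the promoter table gives for the 8 genes, 9 were called in all 12 lists (45.9% of all annotated starts) and 2, at Dnmt1 and Dnmt3l, in none.

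By site, 8 of the 60 (13.3%) were called in all 12 lists, against 8.62% of all regions, and all 8 merged sites lay at starts. In the merged site of Tet1, the peaks of 2i, D0 and D1 did not reach the start. Early-lost sites, called at both 2i and D0 and at neither D10 nor D15, numbered 9 (15%), against 9.56% of all regions. Late-gained sites, called at both D10 and D15 and at neither 2i nor D0, numbered 8 (13.3%), against 3.8%. Transient sites, called in 2 or more neighbouring lists between D1 and D8 but in neither the first 2 nor the last 2 lists of the course, numbered 10 (16.7%), against 14.7%. A further 18 (30%) were called in 1 list only, against 43.7%, and 7 belonged to none of these classes.

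**Figure D1:**
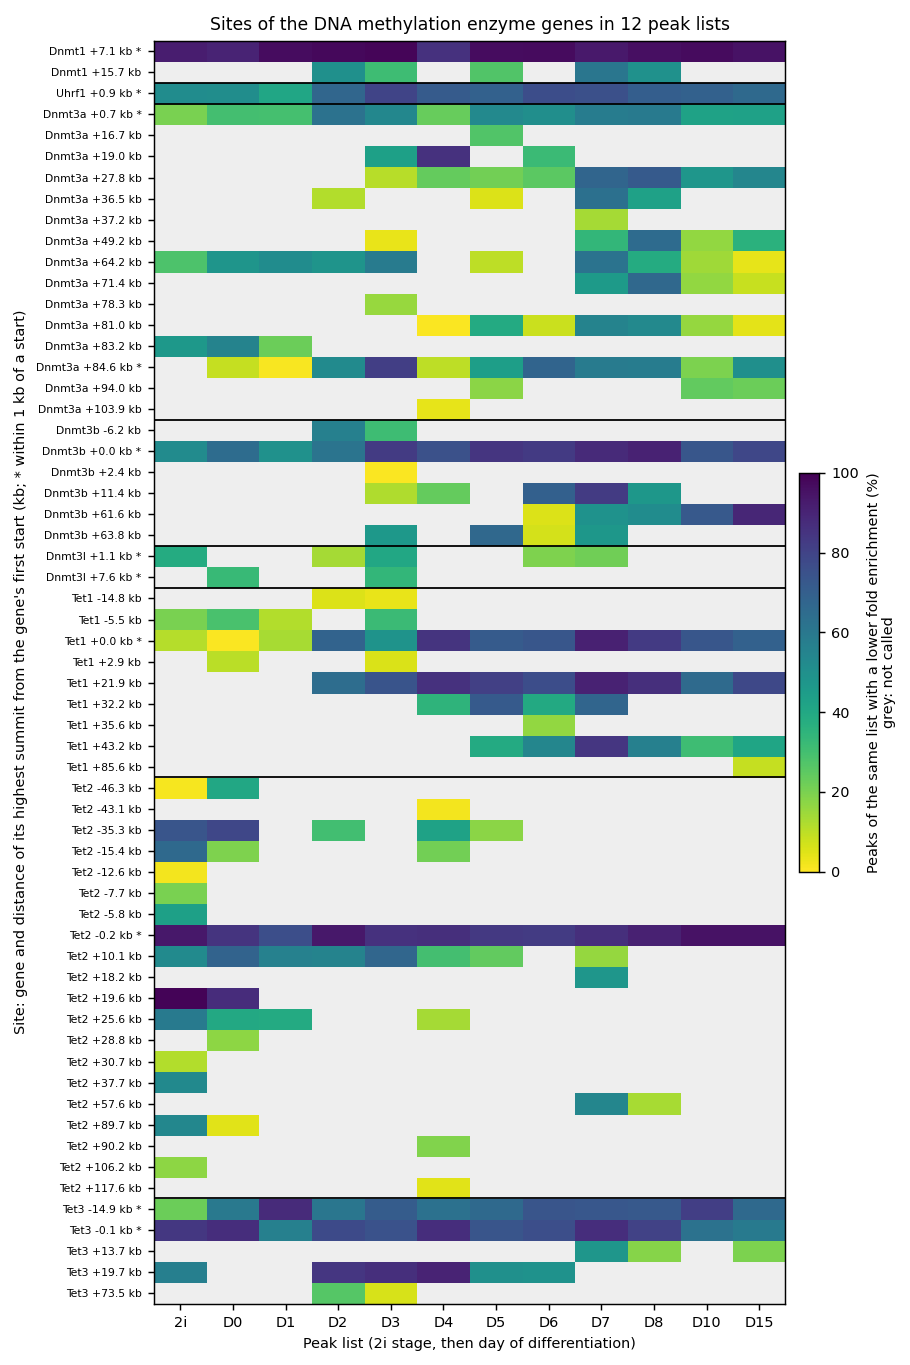
Each row is 1 of the 60 sites, named by gene and by the distance in kb of its highest summit from the gene's first annotated start (starred if a summit is within 1 kb of any start), and each column is a peak list. Colour gives the percentage of peaks in the same list with a lower fold enrichment and grey means not called: 8 of the starred sites are coloured in all 12 lists, whereas 14 of the 20 Tet2 sites are coloured at 2i and 1 at D15.

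Of the 60 sites, 43 lay inside a gene body and 17 outside, and 11 had a summit within 1 kb of a start. None of the early-lost, late-gained, transient or single-list sites was among those 11. Among the 49 sites away from starts, 18.4% were early-lost, 16.3% late-gained, 20.4% transient and 36.7% in 1 list only, and none was called in all 12. The corresponding shares of 111641 regions away from annotated starts were 10.3%, 3.82%, 15.8% and 47.9%, and 2.52% were called in all 12. Inside gene bodies and away from starts there were 32 sites: 4 early-lost, 7 late-gained, 7 transient, 10 in 1 list only and none in all 12. Among 49753 such regions in all protein-coding genes the shares were 8.8%, 4.29%, 17.8%, 45.6% and 3.98%. Of the 9 early-lost sites 7 were at Tet2, and without that gene 2 of 40 sites (5%) were early-lost. Of the 8 late-gained sites 5 were at Dnmt3a and 2 at Tet1, and 1, assigned to Dnmt3b, lay 23.3 kb outside that gene. With only peaks of −log10 q of at least 5, 6 of the 9 early-lost sites kept that class and 3 did not. Of the 8 late-gained sites, 3 kept theirs and 5 did not: those kept were at Dnmt3a (27.8 kb from the first start), Tet1 (21.9 kb) and Dnmt3b. At that threshold 2 start sites, of Tet1 and of the internal Dnmt3a start, became late-gained, since their early peaks fell below it, which makes 5 in all. With equal numbers of top peaks from each list, 6 of the 8 late-gained sites kept their class.

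**Figure D2:**
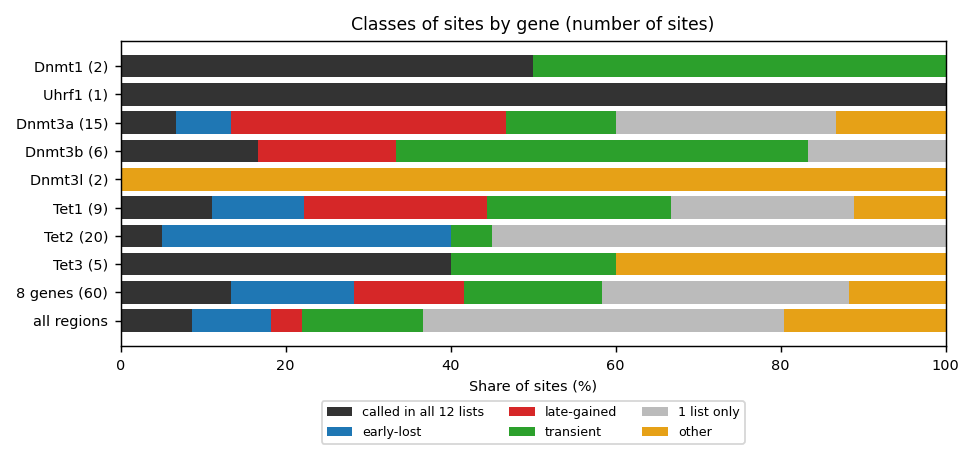
Stacked bars give the share of sites (%) in each class for each gene, for the 8 genes together and for all regions, with the number of sites in brackets. Early-lost sites make up 35% of the Tet2 bar and 6.67% of the Dnmt3a bar, and late-gained sites make up 33.3% of the Dnmt3a bar and none of the Tet2 bar.

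The maintenance genes Dnmt1 and Uhrf1 kept 1 start site each through all 12 lists. At Dnmt1, which copies methylation after replication, the site chr9:20952092-20953294 had a fold enrichment from 8.29 at D4 to 21.3 at D3, with a median of 12.3. Enrichments are the authors' own peak values and rank a peak only within its list. In the median list this site was above 96.2% of the peaks. It covers the second and the third annotated starts, and the first start, at position 20959888, had no summit within 2 kb in any list. The other Dnmt1 site, chr9:20943520-20944408, lay inside the gene 15.7 kb from that first start and was transient, with enrichments of 5.23 at D2, 4.51 at D3, 4.04 at D5, 6.03 at D7 and 4.69 at D8. At Uhrf1, whose product reads hemimethylated CpG, the single site chr17:56302806-56304613 covered both annotated starts, with an enrichment from 4.69 at D1 to 13.6 at D3, with a median of 6.70. Uhrf1 lies 3.05 kb from Arrdc5 and 2.48 kb from Kdm4b. Of the 8 sites called in all 12 lists, all but that of Tet1 had their highest enrichment at D3, the list with the highest median over all its peaks.

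Dnmt3a, a de novo methyltransferase, had 15 sites, all inside its 113 kb gene body (chr12:3801559-3914443, plus strand), and more of them were called late than early. There were 3 sites at 2i, 4 at D0, 9 at D7, and 8 at each of D8, D10 and D15, of which 2 were common to 2i and D15. Late-gained sites made up 5 of the 15 (33.3%). Of 21627 protein-coding genes, 0.139% had as many or more. Of 1218 genes with 15 or more sites, 0.0821% had as large a share, that is, Dnmt3a alone. The minimum of 15 was set after the values were seen. For peaks of like enrichment, the median −log10 p was 7.69 at 2i and 8.75 at D0. It was 11.1 at D10 and 11.5 at D15, so a given enrichment carried more weight in the late lists. The part of this in the late-gained calls of Dnmt3a was not tested.

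Positions along a gene are given in kb from its first annotated start in the direction of transcription. The late-gained Dnmt3a site at 27.8 kb, chr12:3833564-3835260, was called from D3 on, with enrichments of 3.35, 3.80, 3.80, 3.63, 6.86, 6.91, 4.81 and 5.46 in order from D3 to D15, and held up to 5 summits in a list. The site at 81.0 kb, chr12:3887471-3888315, was called from D4 on, with 2.63, 4.67, 2.99, 5.49, 4.92, 3.40 and 2.87 in order from D4 to D15. The site at 49.2 kb, chr12:3855618-3856572, had 2.87 at D3 and 4.17, 6.06, 3.42 and 4.43 in order from D7 to D15. Both of these were highest at D7 or D8, in the middle of the interval in which they were called. The site at 71.4 kb, chr12:3877866-3878760, was called from D7 on, with 4.72, 6.19, 3.42 and 3.20 in order from D7 to D15. The last, at 94.0 kb, chr12:3900936-3901198, had 3.70 at D5, 3.70 at D10 and 3.84 at D15. At D10 and D15 the sites at 71.4 kb, 81.0 kb and 94.0 kb ranked low, above 4.22% to 23.9% of the peaks of those lists. The D15 values of 3.20 at 71.4 kb and 2.87 at 81.0 kb were below 3.23, the 5th percentile of enrichment at 2i. All other D10 and D15 values of the late-gained Dnmt3a sites were above it. With only peaks of −log10 q of at least 5, only the site at 27.8 kb of these 5 stayed late-gained. The site at the internal start, described next, took that class, so that 2 Dnmt3a sites had it.

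The starts of Dnmt3a differed from each other. The first promoter window printed above lay in the site chr12:3806093-3808846, which was called in all 12 lists with enrichments from 3.79 at D4 to 6.97 at D3, with a median of 5.01. The outer 5′ bound of the gene, at position 3801559, had no summit within 2 kb in any list. The internal start lay in the site chr12:3891185-3892752, which was called in every list but 2i. Its enrichment was 3.30, 2.89, 5.37, 14.2, 3.22, 4.98, 7.63, 5.80, 5.28, 3.46 and 5.18 in order from D0 to D15. It was highest at D3, above 81.3% of that list's peaks, and lowest at D1, above 0.884%. From D0 on the nearest summit was 62 to 260 bp from this start. At 2i the nearest was 1808 bp upstream of it, in the separate early-lost site chr12:3889657-3890485, which had 4.97, 5.23 and 4.01 in order from 2i to D1. Of 21044 annotated starts of protein-coding genes, 0.756% had a summit within 1 kb in every list but 2i, a pattern taken from the values of this start itself. The 2i list is also one of those in which a given enrichment carried least weight, and the part of this in the missing call was not tested.

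Further Dnmt3a sites were called for other spans. The site at 64.2 kb, chr12:3870907-3871794, was called in 10 lists, all but D4 and D6, with its highest enrichment, 7.85, at D3 and its lowest, 2.81, at D15. Transient sites lay at 19.0 kb (chr12:3825548-3826232), with 5.53 at D3, 8.32 at D4 and 3.91 at D6, and at 36.5 kb (chr12:3843041-3843780), with 3.45 at D2, 3.08 at D5, 6.30 at D7 and 4.27 at D8. At D4 the first of them was above 85.9% of the peaks. Another 4 sites were called once each, at D3, D4, D5 and D7.

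**Figure D3:**
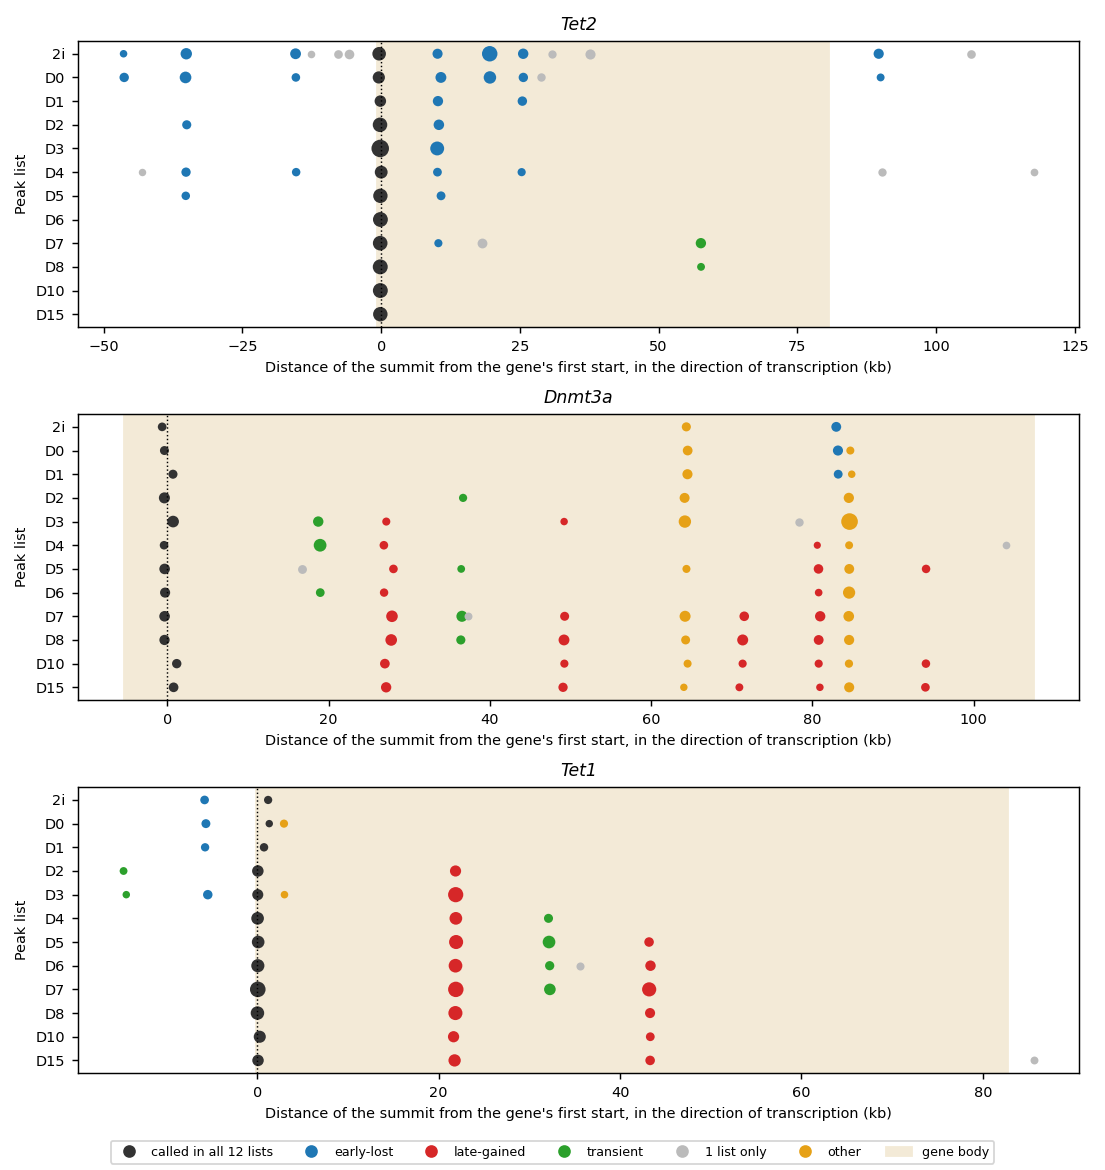
Called sites at Tet2, Dnmt3a and Tet1 by peak list (vertical axis, 2i at the top) and distance in kb of the site's highest summit in that list from the gene's first start (horizontal axis, dotted line), with point area in proportion to fold enrichment, colour for the class of the site and shading for the gene body. The 7 early-lost Tet2 sites lie on either side of the start and are absent from the D8, D10 and D15 lines, whereas the 5 late-gained Dnmt3a and 2 late-gained Tet1 sites lie inside the gene bodies and are absent from the 2i, D0 and D1 lines.

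Dnmt3b, the other de novo methyltransferase, was called at its start in all 12 lists and had most of its other sites in the middle of the course. The start site chr2:153648944-153650279 had enrichments from 5.08 at D1 to 14.7 at D3, with a median of 7.63. Only this site was called at 2i, D0 and D1. There were 2 sites at D2, 5 at D3, 2 at D4 and D5, 4 at D6 and D7, 3 at D8 and 2 at D10 and D15. The transient site inside the gene, at 11.4 kb (chr2:153660309-153661301), had 3.44 at D3, 3.81 at D4 and 7.93, 9.84 and 4.48 in order from D6 to D8. A transient site upstream, at -6.24 kb (chr2:153642740-153643518), had 5.68 at D2 and 4.52 at D3. A pair of sites lay beyond the far end of the gene, 23.3 and 25.6 kb outside it, within Dnmt3b-ps1, a neighbouring copy. The gene table lists this copy as a pseudogene with Dnmt3c as another name, and whether it is a working gene was not examined. Both sites were counted for Dnmt3b only because the rule used protein-coding genes, and they may belong to the copy instead. One of them, chr2:153712694-153713533, was transient, with 6.00 at D3 and 7.40, 2.91 and 4.93 in order from D5 to D7. The other, chr2:153710528-153711427, was late-gained, with 2.85, 4.96, 4.76, 7.31 and 9.33 in order from D6 to D15, and was above 89.3% of the peaks at D15. How reads from similar copies were placed is not given in the labels or files.

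Dnmt3l, which encodes the inactive partner of the de novo enzymes, was the only one of the 8 genes with no site called in all lists. Its 2 sites gave 7 summits in all, and none at D1, D4, D5, D8, D10 or D15. The site chr10:78042950-78043854 had 4.66 at 2i, 3.54 at D2, 5.18 at D3, 3.42 at D6 and 3.65 at D7. All 5 of these summits also lay inside the annotated body of Aire, which overlaps Dnmt3l, so the site cannot be given to either gene alone. The site chr10:78049428-78050049, which holds the second start printed above, was called at D0 (4.32) and D3 (4.65). Each of these peaks was above 13.3% to 40.1% of its list. The third annotated start had no summit within 2 kb in any list.

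Tet1, the oxidase known for its high level in embryonic stem cells, had its nearest summit closer to its start from D2 on. The merged start site chr10:62885702-62887572 was called in all 12 lists, but the nearest summit lay 1183 bp downstream of the start at 2i, 1307 bp at D0 and 730 bp at D1. From D2 on it lay 4 to 84 bp away in each of the 9 lists. The highest enrichment in the site was 3.48, 2.83, 3.65, 6.78, 6.26, 8.15, 8.17, 8.84, 12.4, 9.30, 7.46 and 6.75 in order from 2i to D15. In rank this was above 11.0%, 0.743% and 13.1% of the peaks in the first 3 lists, and above 48.7% to 91.0% later. Of the 21044 annotated starts, 0.808% had a summit within 500 bp in all lists from D2 and in none before. That pattern was taken from the values of Tet1 itself. Within 1 kb the Tet1 start was also called at D1, and within 2 kb it was called in all 12 lists. The promoter table gives this 1 start for Tet1.

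**Figure D4:**
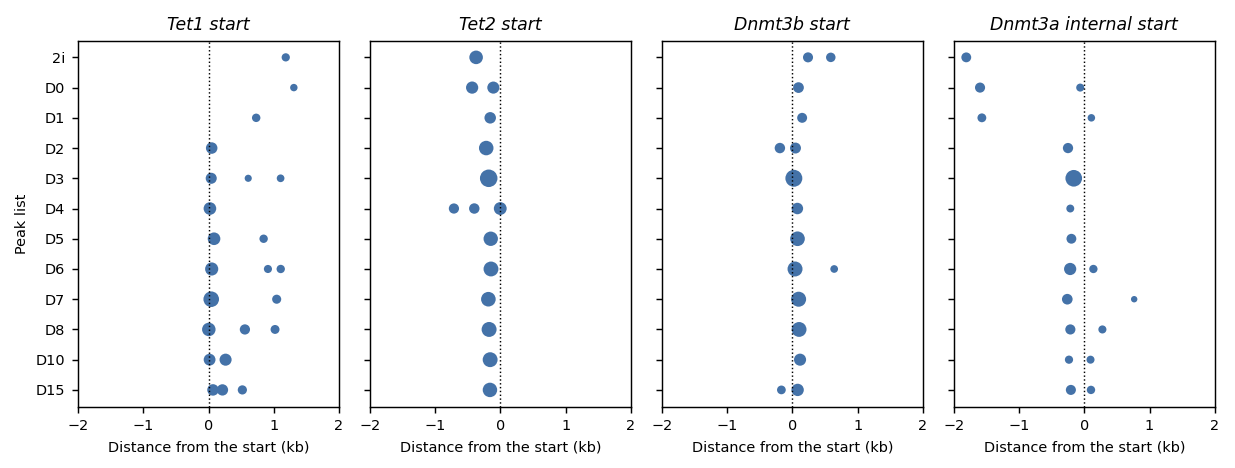
Summits within 2 kb of 4 starts by peak list (2i at the top), with distance from the start in kb in the direction of transcription and point area in proportion to fold enrichment. At Tet1 the summits of 2i, D0 and D1 lie 1.18, 1.31 and 0.73 kb downstream and those at the start appear from D2, whereas Tet2 and Dnmt3b have a summit near the start in every list and the internal Dnmt3a start in every list but 2i.

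Inside Tet1, 2 sites were late-gained, and 3.12% of protein-coding genes had as many or more. Tet1 had 9 sites in all, against a median of 2 per protein-coding gene, and was not compared with genes of like site number. The site at 21.9 kb, chr10:62865169-62866794, was first called at D2, the list in which the summit at the start also appeared. Its enrichment was 6.39, 11.8, 8.26, 10.1, 9.58, 12.2, 10.1, 6.47 and 7.76 in order from D2 to D15, and all 9 of these calls had a −log10 q of at least 5. The site at 43.2 kb, chr10:62843596-62844378, was called from D5 on, with 4.67, 5.57, 10.3, 5.21, 3.95 and 4.68 in order from D5 to D15. The 43.2 kb site had a −log10 q under 5 at D10, so with only stricter peaks it was no longer late-gained. Both were highest at D7, above 90.3% and 84.2% of that list's peaks. A transient site between them, at 32.2 kb (chr10:62854833-62855389), had 4.19, 8.21, 4.37 and 6.90 in order from D4 to D7. Upstream, an early-lost site at -5.47 kb (chr10:62892462-62893450) had 3.86, 4.08 and 3.57 in order from 2i to D1 and 4.59 at D3, and a transient site at -14.8 kb (chr10:62901731-62902273) had 3.15 at D2 and 2.87 at D3. These upstream peaks ranked in the lower part of their lists, the highest above 31.7% of the peaks.

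Tet2 had the most sites of the 8 genes, 20, and at D10 and D15 only the one at its start was called. The gene (chr3:133463677-133545136, minus strand) is flanked by wide intervals without protein-coding genes, 85.4 kb to Ppa2 on one side and 691 kb to Cxxc4 on the other. Of the 20 sites 14 were called at 2i and 9 at D0, then 3, 3, 2, 8, 3, 1, 4 and 2 in order from D1 to D8, and 1 at each of D10 and D15. The share of a list's summits at Tet2 was 0.326 per 1000 at 2i (Wilson 95% interval 0.197 to 0.538) and 0.0276 per 1000 at D15 (0.00487 to 0.156). These intervals cover counting error only and take summits as independent, and the 15 summits at 2i lay in 14 sites. The start site chr3:133543898-133545303 was called in all lists, with enrichments from 6.77 at D1 to 15.7 at D3, with a median of 10.7. At D10 and D15 it was at 11.3 and 10.7, among the higher peaks of both lists.

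Early-lost sites made up 7 of the 20 at Tet2 (35%), 3 inside the gene and 4 outside. Of 21627 genes, 0.245% had as many or more, and of the 1218 genes with 15 or more sites 0.657% had as large a share. The highest at 2i was at 19.6 kb, chr3:133524351-133525376, with 12.2 at 2i, above 99.1% of that list's peaks, and 7.96 at D0, above 87.2%. It was not called in any of the 10 later lists. The site at 10.1 kb, chr3:133532837-133534732, was called in the most lists, with 5.21, 6.07, 5.42, 5.65, 9.89, 3.92 and 4.01 in order from 2i to D5 and 3.38 at D7. The site at -35.3 kb, chr3:133579353-133580055, had 6.63 at 2i, 6.97 at D0, 4.25 at D2, 4.44 at D4 and 3.70 at D5. The site at 25.6 kb, chr3:133518385-133519252, had 5.55, 4.51 and 4.57 in order from 2i to D1 and 3.43 at D4. These 3 sites all fell out of the lists before D8. The site at -15.4 kb, chr3:133559524-133560048, had 5.98 at 2i, 3.78 at D0 and 3.68 at D4. The remaining 2 were called at 2i and D0 only, at 89.7 kb (chr3:133454223-133454867), with 5.31 at 2i and 3.21 at D0, and at -46.3 kb (chr3:133590428-133591183), with 2.90 at 2i and 4.53 at D0.

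Of these 7 sites 2, 2, 1, 4, 2, 0, 1 and 0 were called in order from D1 to D8. The D10 and D15 lists were shorter than that of 2i, with 32641 and 36248 peaks against 46032. The part of list length in the missing calls was not tested. A given enrichment carried more weight at D10 and D15 than at 2i, not less. With only peaks of −log10 q of at least 5, or with equal numbers of top peaks from each list, 4 of the 7 stayed early-lost. Another 6 Tet2 sites were called at 2i only, 3 at D4 only and 1 each at D0 and D7 only. Of the 8 sites called at D4, 4 were early-lost, 3 were called there alone and the last was the start site. The single transient site at Tet2, chr3:133486595-133487119, had 5.47 at D7 and 3.16 at D8.

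**Figure D5:**
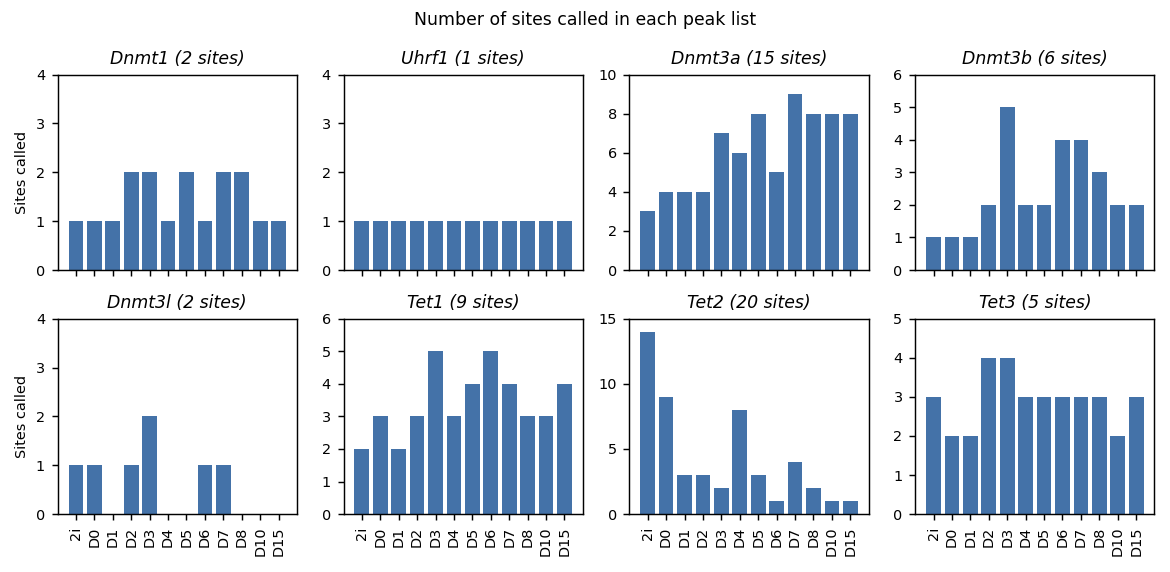
Bars give the number of sites called in each of the 12 peak lists for each gene, with the vertical scale set per gene. Tet2 has 14 sites at 2i and 1 at D15, Dnmt3a has 3 and 8, and Uhrf1 has 1 in every list.

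Tet3, which is known for oxidising the paternal genome after fertilisation, had 5 sites, all inside its body, and 2 of them were called in all 12 lists. One covered the start in the promoter table (chr6:83440825-83442169), with enrichments from 5.44 at D1 to 12.1 at D3, with a median of 8.23. The other, at -14.9 kb (chr6:83455746-83457377), lay at the outer 5′ bound of the gene, with enrichments from 3.97 at 2i to 11.0 at D3, with a median of 7.15. The site at 19.7 kb, chr6:83421634-83422491, had 5.51 at 2i and 8.88, 16, 9.18, 5.51 and 5.05 in order from D2 to D6. It was thus called at 2i, not at D0 or D1, and again in the middle of the course, and at D4 it was above 89.9% of that list's peaks. The site at 13.7 kb, chr6:83427640-83428598, had 4.95 at D7, 3.33 at D8 and 3.70 at D15, and a transient one at 73.5 kb (chr6:83368058-83368477) had 4.02 at D2 and 2.98 at D3.

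Over all 8 genes, 26 sites were called at 2i and 20 at D15, and 9 were common to both. The Jaccard index of these lists, shared sites over all sites of either, was 0.243 for these genes and 0.274 for all regions. Between neighbouring lists the lowest index was that from D3 to D4 (0.405, with 9 sites gained and 13 no longer called), where all regions also had their lowest value, 0.328. The highest was from D10 to D15 (0.9, against 0.598 for all regions), with 2 gained and 0 no longer called. From D0 to D1 and from D7 to D8 no site was gained, and 8 and 6 were no longer called. D1 is the shortest list and D7 the longest.

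The share of a list's summits at the 8 genes together was 0.695 per 1000 at 2i (0.492 to 0.981), lowest at D4 with 0.571 (0.404 to 0.806) and highest at D15 with 1.13 (0.834 to 1.53). For Dnmt3a alone it was 0.109 at 2i (0.0464 to 0.254) and 0.469 at D15 (0.293 to 0.751), where the 5 and 17 summits lay in 3 and 8 sites. For Tet1 it was 0.0434 (0.0119 to 0.158) and 0.221 (0.112 to 0.435), from 2 summits in 2 sites and 8 in 4. Summits of 1 site are not independent, so these intervals are too narrow and no difference was drawn from them.

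The timing of the changing sites was set beside that of all regions of the same class. Of the 9 early-lost sites, 4 were called at D1, 2 at D3, 4 at D4 and 0 at D6, against 54.2%, 36.8%, 28.6% and 8.19% of all early-lost regions. Of the 8 late-gained sites, 0 were called at D1, 1 at D2, 3 at D3, 5 at D5 and 7 at D7, against 4.95%, 21.1%, 25.0%, 44.3% and 78.3% of all late-gained regions.

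Other genes of the pathway were described in the same way. Of 26 listed readers, partners and cofactors, 25 were in the gene table as protein-coding genes, with 133 sites. Of these sites 25 (18.8%) were called in all 12 lists, against 8.62% of all regions, 10 (7.52%) were early-lost, against 9.56%, and 3 (2.26%) were late-gained, against 3.8%. A further 16 were transient and 43 (32.3%) were in 1 list only, against 14.7% and 43.7%. The start was called in all 12 lists for 17 of the 20 genes with a start in the table, against 49.6% of all such genes. The exceptions were Zbtb4, a methyl-CpG binding zinc finger protein, not called at 2i and D1, Zbtb33, which encodes the methyl-CpG binding protein Kaiso, not called at D1, and Ogt, the O-GlcNAc transferase that binds TET proteins, not called at D0, D1 and D4. Dppa3, whose product keeps UHRF1 off chromatin in oocytes, had 3 early-lost sites. Usp7, a deubiquitinase that binds DNMT1 and UHRF1, Gadd45a, a DNA repair adaptor, and Zbtb38, another methyl-CpG binding protein, had 2 early-lost sites each. No gene of the list had 2 late-gained sites.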

How the data were processed

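Processing by the authors used cutadapt 2.10 for trimming, Bowtie2 2.3.2 for alignment, SAMtools 1.5, Picard, and MACS2 2.1.1 for peaks. These names and the build mm10 are from the submitters' processing notes, which give no settings. In the deposited lists each peak has a fold enrichment (a linear ratio), a −log10 p-value, a −log10 q-value, a summit offset and an integer score, which was not used. The sources used here do not give the read depth or how replicates were combined. Overlapping or touching peaks of all lists were merged into sites with pandas 2.3.3 in Python 3.11.15, and a site was called in a list if any of its peaks was from that list. Gene bodies and starts came from RefSeq tables of GRCm38.p6. Regions on chromosomes without starts in the promoter table were left out of counts by distance from a start. Exons were not used. Merging, assignment and classes were tested on simulated lists. All 8 members are named, and other pathway genes are named where a start was missing from a list or where at least 2 sites were early-lost or late-gained. Members, lists and classes were chosen with earlier results of these data known. Alternatives changed the distance limit, the peak threshold, the number of peaks, the stages that define a class and single lists. Shares have Wilson 95% intervals (scipy 1.17.1).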

Additional observations from a re-analysis of the deposited data

How the results depend on the processing

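Counts of sites were recomputed under up to 14 settings, and shares and start calls under fewer. Of 166 alternative values, 151 stayed within 1.5 times the main count or within its interval, and 15 did not. Those that moved were 14 of 114 counts of sites and 1 of 16 start calls. None of the 36 shares left its Wilson interval. Some values could not move: sites called in all lists lay inside gene bodies, so the distance limits could not change their number. With −log10 q of at least 5, sites called in all lists numbered 5 (main 8), late-gained sites 5 (8, of which 3 were the same sites), sites in a single list 10 (18), early-lost Tet2 sites 4 (7) and late-gained Dnmt3a sites 2 (5). With equal numbers of peaks (31324 per list), the values were 5 called in all lists, 5 transient (10), 10 in a single list and 4 early-lost Tet2 sites. Inside gene bodies only, 4 sites were early-lost (9), 3 of them at Tet2, and 10 were in a single list, as fewer sites were counted. With 2i alone as the early stage, 17 sites were early-lost, 13 of them at Tet2, since fewer lists were required. Dnmt3l had a start call in 6 lists within 2 kb (3 within 1 kb). The cause of the other differences was not tested. Leaving out D1, D4 or D7 and the limits of 20 and 100 kb moved no count by more than 1.5 times. Settings for Tet2, Dnmt3a and Tet1 alone were chosen after seeing the data. No paired analysis was possible because both replicates of a time point share 1 peak list, and for the same reason no replicate could be left out. Depth is unknown.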

Other observations

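The distance limit of 50 kb bore on Tet2. Its outermost sites inside the limit lay 42.3 and 45.6 kb outside the gene body. Another 5 sites, all with Tet2 as nearest gene, lay beyond it and within 100 kb, from 55.6 to 97.3 kb. The nearest of these, chr3:133600135-133601473, was called in 8 lists, among them 2i, D10 and D15. The farthest, chr3:133642057-133643076, was called at 2i and from D0 to D3.

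Genes whose number of summits per 1000 peaks followed that of a member most closely over the 12 lists were ranked among 6489 protein-coding genes with at least 24 summits. For Tet2 they were Car8 (Pearson's r = 0.965), Chmp4c (0.963) and Mettl25 (0.948). For Dnmt3a they were 2310022B05Rik (0.948), Map3k14 (0.945) and Afap1 (0.928), and for Tet1 Ppfia1 (0.954), Kdm6b (0.940) and Zswim4 (0.937). The points share lists and list lengths, and these are the highest values among many genes over 12 points.

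Several sites also overlapped non-coding genes. The Dnmt3a sites at 78.3, 81.0, 83.2 and 84.6 kb overlapped Gm31623, and the Tet1 sites from -14.8 to 21.9 kb overlapped Gm51805.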
